A study of Mus musculus with 160 samples.

Results

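The cells described here are the leptin receptor (Lepr) positive stromal cells of young mouse bone marrow, taken at baseline with no treatment. They are all 82 cells labelled young, of 160 cells in the series, and were chosen by that label alone. The cells came from the bone marrow of C57BL/6J mice given as 9 weeks old in the sample labels and 10 weeks old in the protocol. A cell sorter kept cells with LepR and CD140a (the protein of Pdgfra) on their surface and without CD45, Ter119 and CD31, which mark blood, red and endothelial cells. Single cells were captured on a Fluidigm C1 chip, a microfluidic device that lyses each cell in its own well, and their RNA was copied with the SMARTer chemistry. The labels name no animal and give neither sex nor genotype, so the 82 cells count as 1 sample. No test was made, and the intervals given cover the sampling of these cells only.

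Lepr positive stromal cells surround the marrow sinusoids and are the main source of the chemokine CXCL12 and of stem cell factor (Kitl), which keep blood stem cells in the marrow. They express adipocyte genes such as Adipoq without being fat cells, and they give rise to fat and bone cells in the adult marrow. Cells of this kind are also known for secreting matrix proteins, growth factor carriers and complement proteins.

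Values are FPKM, which divide a gene's fragments by its transcript length and by the cell's total, so levels can be set side by side between genes. A gene is called listed in a cell at 1 FPKM or more. Young cells listed a median of 1114.5 named genes, with quartiles of 666.5 and 1371 and a range from 129 to 2129. The FPKM summed over named genes exceeded 3 times the median in 13 cells, and these 13 cells listed 388 to 702 genes, against a median of 1216 in the other 69. The read number per cell is not given in the sources used here, so the depth is unknown. Not every zero need mean absent RNA, since the estimate itself may have failed: the glycolytic enzyme gene Gapdh stood at exactly 0 in 49 cells and the collagen chain Col1a1 in 65.

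The label of the cells was checked against Cxcl12, Lepr, Adipoq and Kitl. All 4 were listed together in 72 of 82 cells (87.8%, exact 95% interval 78.7 to 94.0), 3 of them in 8 cells and 2 in 2 cells. Since the sort used LepR protein, Lepr RNA checks the sort and is no finding.

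Cxcl12 ran from 10.6 to 5551 FPKM with a median of 966 (95% interval of the median 802 to 1092), and no cell was without it. Its median was the highest of all named genes. Within a cell Cxcl12 ranked from 1 to 80 among named genes, with a median rank of 6.5, and it was the highest named gene in 10 cells. Adipoq, which encodes the hormone adiponectin, ran from 0 to 42706 FPKM with a median of 235 (156 to 314). Its highest value, in young cell 19, made up 60.8% of its summed FPKM. Kitl, stem cell factor, ran from 0 to 9736 FPKM with a median of 71.8 (53.4 to 114). Lepr, the leptin receptor, ran from 0 to 545 FPKM with a median of 62.3 (49.1 to 85.4). Adipoq, Kitl and Lepr were each listed in 78 cells (95.1%, interval 88.0 to 98.7). The median level of Adipoq was therefore below that of Cxcl12, and those of Kitl and Lepr were lower again, with overlapping intervals for Kitl and Lepr.

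**Figure D1:**
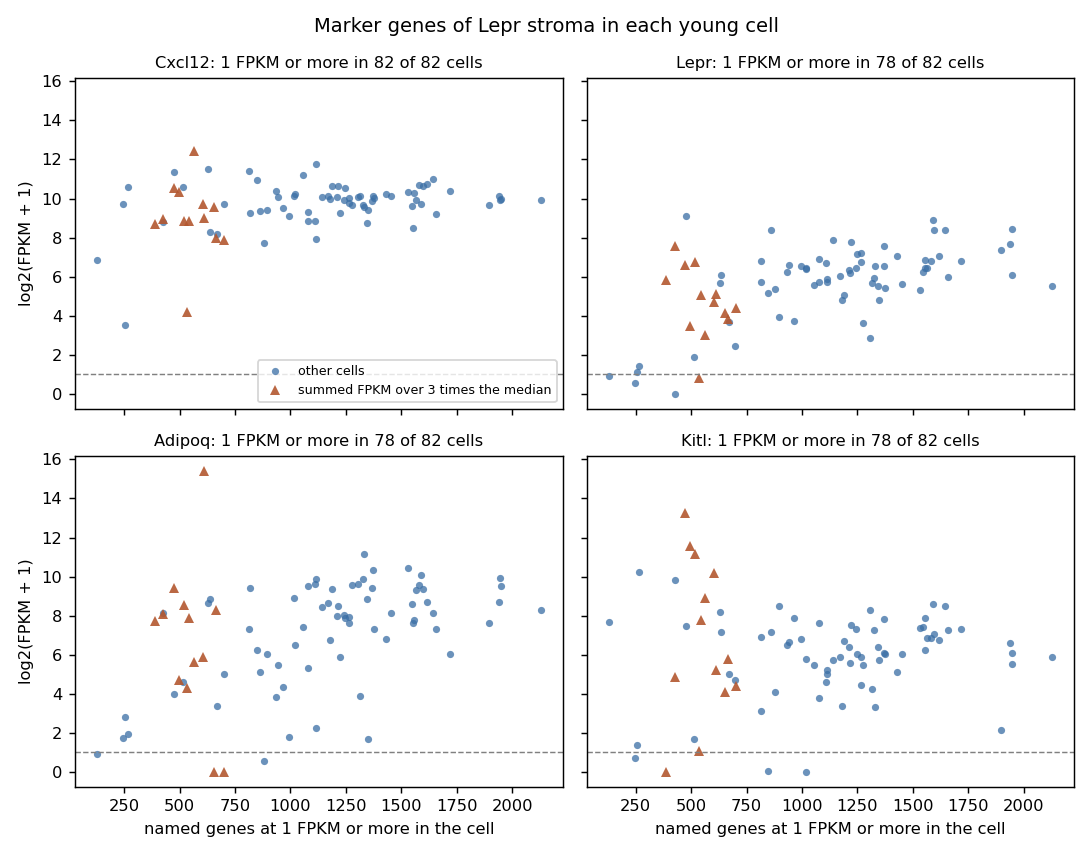
Each panel plots log2(FPKM + 1) of 1 marker gene (vertical axis) against the number of named genes at 1 FPKM or more in the cell (horizontal axis), 1 point per young cell, with triangles for the 13 cells whose summed FPKM exceeded 3 times the median and a dashed line at 1 FPKM. Cxcl12 lies above the line in 82 of 82 cells, whereas Lepr, Adipoq and Kitl each fall below it in 4 cells.

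The 10 cells that missed a marker did not miss the same ones. Young cell 13 listed Cxcl12 (855 FPKM) and Adipoq (2.30 FPKM) and missed Lepr and Kitl, and young cell 61, with 129 listed genes the poorest of the 82, listed Cxcl12 (115 FPKM) and Kitl (206 FPKM) only. Young cell 60 missed Lepr while it held 897 FPKM of Kitl, and young cell 28 missed Kitl while it held 1989 FPKM of Cxcl12. Across the 82 cells the levels of the 4 genes were weakly related, with Spearman correlations from 0.11 (Kitl and Lepr) to 0.32 (Adipoq and Lepr). The cells share a capture and differ in the number of genes listed, and within the 41 cells at or above the median gene number the 6 correlations ran from -0.02 to 0.21.

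The start regions of the leading stromal genes differ in base composition, and 4 are shown because they belong to 3 of the markers and to Ibsp, the bone matrix gene with the highest median of the osteogenic list. The sequences are the 250 bases before the annotated RefSeq start in build GRCm38.p6, read 5′ to 3′ on the gene's strand. Capitals mark CpG dinucleotides, the pairs at which mammalian DNA is methylated.
Cxcl12 (chr6:117168285-117168534, + strand): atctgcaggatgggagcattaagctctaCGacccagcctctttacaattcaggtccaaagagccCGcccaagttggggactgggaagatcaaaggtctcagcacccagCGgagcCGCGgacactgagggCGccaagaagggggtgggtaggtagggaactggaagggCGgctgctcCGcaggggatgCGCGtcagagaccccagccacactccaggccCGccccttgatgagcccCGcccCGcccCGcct
Kitl (chr10:100015571-100015820, + strand): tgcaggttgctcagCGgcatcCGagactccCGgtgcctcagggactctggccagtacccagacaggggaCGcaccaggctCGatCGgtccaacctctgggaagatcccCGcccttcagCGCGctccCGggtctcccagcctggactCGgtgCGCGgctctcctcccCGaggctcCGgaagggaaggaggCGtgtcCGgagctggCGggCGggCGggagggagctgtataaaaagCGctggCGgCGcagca
Ibsp (chr5:104299037-104299286, + strand): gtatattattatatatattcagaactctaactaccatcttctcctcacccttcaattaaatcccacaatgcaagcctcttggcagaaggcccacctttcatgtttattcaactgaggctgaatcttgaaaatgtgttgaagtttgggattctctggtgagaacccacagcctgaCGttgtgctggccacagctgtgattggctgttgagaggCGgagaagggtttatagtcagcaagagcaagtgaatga
Adipoq (chr16:23146286-23146535, + strand): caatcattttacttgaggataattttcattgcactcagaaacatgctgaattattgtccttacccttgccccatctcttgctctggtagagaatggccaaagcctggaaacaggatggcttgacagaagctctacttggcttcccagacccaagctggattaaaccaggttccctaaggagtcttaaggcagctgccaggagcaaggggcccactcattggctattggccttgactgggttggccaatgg
The Kitl window holds 23 CpG and 69.2% G or C, and the Cxcl12 window 14 CpG and 64.4%. The Ibsp window holds 2 CpG and 43.6%, and the Adipoq window 0 CpG and 48.8%. All 4 genes were nonetheless listed in at least 78 of 82 cells, so CpG-rich and CpG-poor windows occur among genes that nearly all cells listed.

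The markers chosen to define cell types other than bone and fat cells were each listed in 0 to 3 cells, while some members of the wider lists for those types were listed in more. Ptprc (CD45), Cd52, Coro1a, Laptm5 and Lyz2 of blood cells, Pecam1 (CD31), Cdh5, Kdr and Emcn of endothelium and Pf4, Ppbp and Itga2b of megakaryocytes were listed in 0 of 82 cells, a count that allows a share of 3.66% by the floor of 3 cells and of 4.40% by the exact interval. These limits cover counting only, since a zero may also be a failed estimate. Since the sort left out cells with CD45, Ter119 or CD31, low counts of blood, red cell and endothelial markers check the sort and are no finding. Dpt, Pi16, Ly6a, Cd34 and S100a4 of fibroblasts and Acta2, Myh11 and Cspg4 of mural cells were also at 0 cells. Among the rare ones were S100a8 of neutrophils in 1 cell (21.5 FPKM), the joint alpha globin row in 1 cell (36.9 FPKM), Rgs5 in 2, Des in 3, Sox9 in 3 and Comp in 2 cells. The summed FPKM of the 4 endothelial, 5 fibroblast and 3 megakaryocyte markers was 0 in every cell, while the 4 stromal markers summed to 19.2 FPKM at the least and to a median of 1511. Of the 14 genes of the wider fibroblast list, the matrix gene Dcn was listed in 34 cells, Lum in 22 and Col3a1 in 13 and the actin-binding Gsn in 8. Of the wider mural list the receptor Notch3 was listed in 13 cells and Myl9 in 5. The adhesion molecule Ncam1 and the calcium-binding S100b of the Schwann cell list were listed in 22 and 19 cells, the parathyroid hormone receptor Pth1r of the chondrogenic list in 16 and the granule proteoglycan Srgn of the hematopoietic list in 6. Members of a list were seldom listed together: no cell listed 3 or more members of the chondrogenic, pericyte and smooth muscle, endothelial, hematopoietic, erythroid, megakaryocyte, Schwann cell or proliferation lists, and 7 cells listed 3 or more of the 14 fibroblast genes.

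Markers of bone and fat cells were listed in very unequal numbers of cells. Of the 7 osteoblast markers, Ibsp was listed in 81 cells and Spp1, the secreted matrix protein osteopontin, in 68, whereas Runx2 and Col1a1 were listed in 9 cells each, Alpl in 7, Sp7 in 4 and Bglap in 0. Of the 6 adipocyte markers, Adipoq was listed in 78 cells and Lpl, the lipase that frees fatty acids from lipoproteins, in 76, whereas Fabp4 was listed in 9, Pparg in 8 and the lipid droplet genes Plin1 and Cidec in 0. A gene that is not listed may still be expressed, and Col1a1 stood at 0 in 65 cells while its partner chain Col1a2 was listed in 80. The mitosis genes Mki67, Top2a and Ccnb1 were listed in no cell. Of the 20 genes of the wider proliferation list, 12 were listed in no cell. This is near the share over all named genes, of which 55.8% were listed in no cell. Tyms was listed in 15 cells, Pcna in 12 and Birc5 in 8, and 36 cells listed at least 1 member.

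The most abundant named genes after Cxcl12 were a mixture of secreted stromal products and genes of general cell function. The 30 highest medians, leaving out ribosomal protein, predicted and small RNA genes, ran from 966 FPKM for Cxcl12 to 77.1 for Spp1. These 30 genes together made up a median of 17.8% of the FPKM on named genes of a cell (quartiles 14.5 and 19.9, range 0.826 to 59.6). Only 29 named genes reached a median of 100 FPKM, 135 reached 10 and 306 reached 1, of 22866 names in the table.

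**Figure D2:**
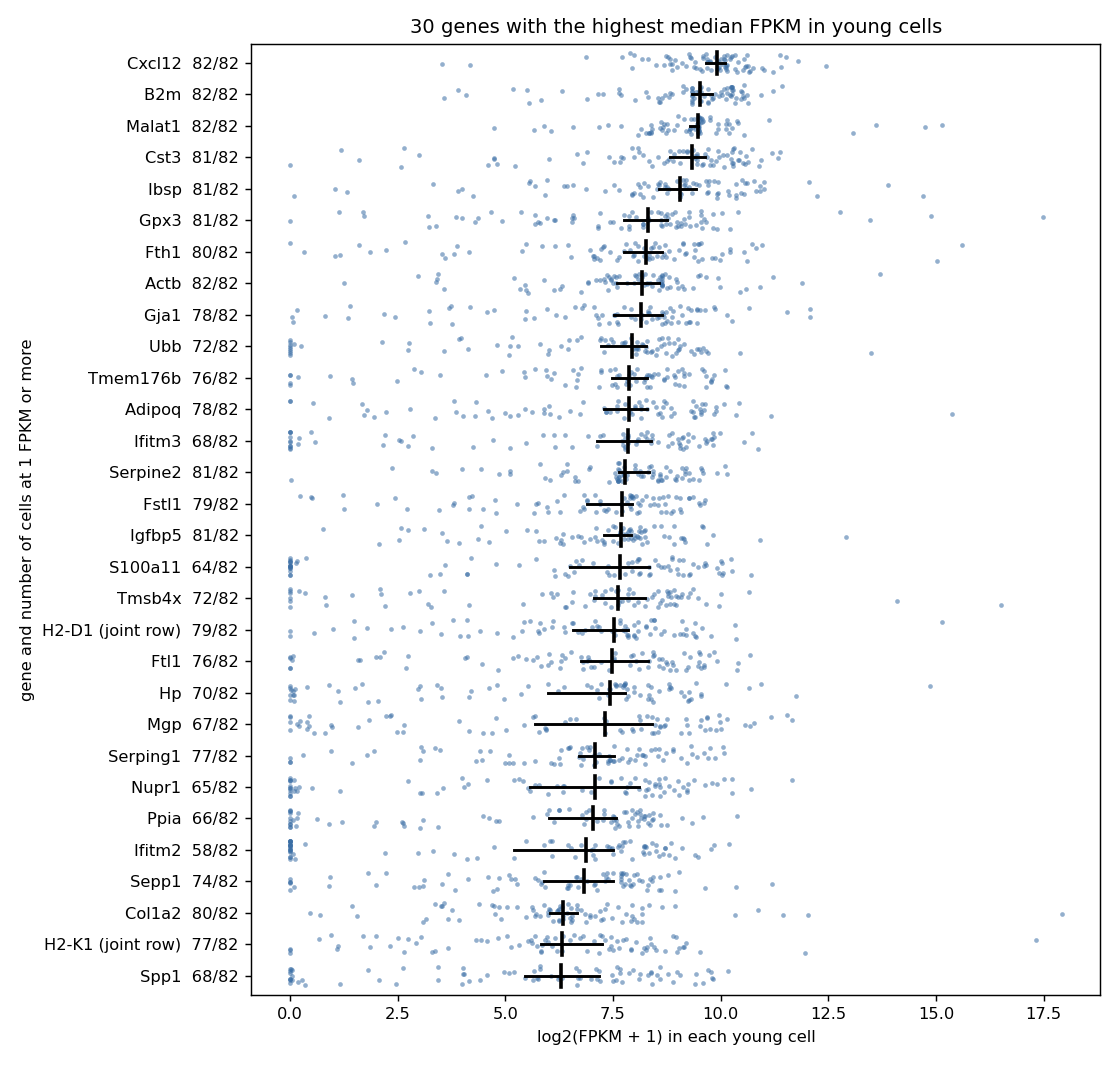
Each point is log2(FPKM + 1) of a gene in 1 young cell (horizontal axis), with the 30 genes of highest median FPKM from top to bottom and the number of cells listing each beside its name. Black ticks are medians and black lines their exact 95% intervals, and the medians fall from 966 FPKM for Cxcl12 to 77.1 FPKM for Spp1 while single cells reach 248401 FPKM.

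Secreted proteins held many of the highest places. Cst3, which encodes the protease inhibitor cystatin C, ran from 0 to 2678 FPKM with a median of 648 (interval 450 to 797), listed in 81 cells. Ibsp, a bone matrix sialoprotein, ran from 0.0698 to 26673 FPKM with a median of 534 (378 to 692), and its interval overlapped that of Cst3. Gpx3, the extracellular glutathione peroxidase, ran from 0 to 184073 FPKM with a median of 318 (213 to 430), and 1 cell held 70.8% of its summed FPKM. Serpine2, an inhibitor of thrombin and other proteases, ran from 0.0232 to 1136 FPKM with a median of 218 (197 to 321), and its highest cell held 4.50% of its summed FPKM. Fstl1, a secreted follistatin-like protein, had a median of 207 FPKM (119 to 246), and Igfbp5, a carrier of insulin-like growth factors, one of 204 (155 to 240). Hp, which encodes the hemoglobin-binding protein haptoglobin, had a median of 171 (62.1 to 220), and Mgp, the mineralization inhibitor matrix Gla protein, one of 158 (50.9 to 336). The complement inhibitor Serping1 followed at 135 FPKM (104 to 184) and Sepp1, the selenium carrier selenoprotein P, at 113 (58.2 to 179). The intervals of Igfbp5, Hp, Mgp and Serping1 overlap, so the order of these genes is not fixed by 82 cells.

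Col1a2, a chain of type I collagen, had a median of 79.9 FPKM (65.1 to 101) and was listed in 80 cells, but 93.2% of its summed FPKM lay in 1 cell with 248401 FPKM. Its partner chain Col1a1 was listed in 9 cells and reached 20.2 FPKM at most. For 7 of the 30 genes 1 cell held over 50% of the summed FPKM: Gpx3, Adipoq, Tmsb4x, Hp, Col1a2 and the joint rows of H2-D1 and H2-K1. The medians given here do not rest on such cells.

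Some genes of antigen presentation and of the interferon-induced membrane family were also high. B2m, the light chain of class I molecules, ran from 10.9 to 2764 FPKM with a median of 731 (646 to 894), listed in 82 cells. The joint row of H2-D1, H2-L and H2-Q5 had a median of 181 FPKM (93.4 to 229) and that of H2-K1 and H2-K2 one of 79.2 (55.9 to 151), and such rows cannot be split among their genes. In contrast, the peptide transporter genes Tap1 and Tap2 were listed in 4 and 0 cells. Ifitm3 and Ifitm2, membrane proteins that restrict virus entry, had medians of 229 (138 to 330) and 116 FPKM (35.6 to 180), whereas Ifitm1 was listed in 9 cells. Isg15, an interferon-induced ubiquitin-like protein, was listed in no cell and Ifit1 in 4. Of the 27 interferon response genes in the table, 3 (11.1%) were listed in at least 50% of cells. The share over all named genes listed in at least 1 cell was 3.12%.

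The others included genes of iron storage, cell structure and several other functions. Fth1 and Ftl1, the chains of the iron store ferritin, had medians of 306 (214 to 399) and 176 FPKM (107 to 318). Actb, cytoplasmic actin, was listed in every cell at 1.40 to 13396 FPKM with a median of 289 (191 to 380), and Tmsb4x, which binds actin monomers, had a median of 196 (131 to 304). Gja1, the gap junction protein connexin 43, had a median of 285 FPKM (184 to 400) in 78 cells. Ubb, a ubiquitin gene, had a median of 243 (147 to 305), Ppia, the folding enzyme cyclophilin A, one of 130 (63.1 to 189), and Nupr1, a nuclear stress protein, one of 135 (46.4 to 276). Tmem176b, a membrane protein, and S100a11, a calcium-binding protein, completed the 30 with 235 (177 to 313) and 201 FPKM (89.5 to 320). Reads of Ubb may be shared with the predicted gene Gm1821, whose level followed that of Ubb with a Spearman correlation of 0.76 over 82 cells and 0.96 over the 41 cells of higher gene number.

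The noncoding Malat1, a nuclear RNA, ran from 25.5 to 36194 FPKM with a median of 707 (627 to 714). Its upper quartile, 755 FPKM, lay close to its median, while 1 cell held 26.7% of its summed FPKM. Of other long noncoding RNAs, the joint row that holds Gas5 was listed in 33 cells with a median of 81.2 FPKM there, and Neat1 in 15 cells with one of 10.5. H19 and the joint row that holds Meg3 stood at 0 in every cell. Rn45s, the ribosomal RNA precursor, was listed in 82 cells with a median of 451 FPKM. Ribosomal protein genes were left out of the 30, though Rps27 ranked 21 and Rpl41 30 among the medians of all named genes. Of 90 ribosomal protein rows 0 were listed in 90% of cells and 46 (51.1%) in at least 50%, against 3.12% of all named genes listed in a cell. The highest medians were those of Rps27 (181 FPKM, 61 cells), Rpl41 (91.6 FPKM, 62 cells) and Rps25 (74.9 FPKM, 68 cells).

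Very few genes were listed in nearly all cells. Of 22866 named genes 10118 were listed in at least 1 young cell, 3059 in 10%, 1086 in 25%, 316 in 50% and 77 in 75% of the cells. At the mark of 90%, which is 74 of 82 cells, there were 28 genes, and 5 of these, Cxcl12, B2m, Malat1, Actb and Rn45s, were listed in 82. A further 5, Cst3, Ibsp, Gpx3, Serpine2 and Igfbp5, were listed in 81 cells. Fth1 and Col1a2 were listed in 80, Fstl1 and the H2-D1 row in 79, Adipoq, Gja1, Kitl, Lepr and Lars2 in 78, and Serping1 and the H2-K1 row in 77 cells. Tmem176b, Ftl1, Vcam1 and Lpl were listed in 76, Igfbp4 in 75, and Sepp1 and Ppap2b in 74.

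Of the 28 broadly listed genes 20 were also among the 30 highest medians. The other 8 were Rn45s and 7 genes of lower level: Igfbp4, a second carrier of insulin-like growth factors (73.2 FPKM), Kitl, Lepr, Vcam1, the adhesion molecule that holds blood cells to stroma (60.2 FPKM), Lpl (49.3 FPKM), Ppap2b, a lipid phosphatase (49.2 FPKM), and Lars2, the mitochondrial leucine tRNA ligase (7.07 FPKM). Lars2 had the lowest median of the 28. In the other direction, 10 of the 30 highest medians missed the 90% mark, among them Ifitm2 in 58, S100a11 in 64, Nupr1 in 65, Ppia in 66 and Mgp in 67 cells.

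The genes nearest to the mark differed little in share. Just inside lay Igfbp4 in 75 cells (91.5%, interval 83.2 to 96.5), and Sepp1 and Ppap2b in 74 (90.2%, interval 81.7 to 95.7). Just outside lay Fos, Hspa8, Marcks, Sparc, Tmsb4x and Ubb in 72 cells (87.8%, interval 78.7 to 94.0) and Cp in 71 (86.6%, interval 77.3 to 93.1). These intervals overlap across the mark.

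A cell listed 14 to 28 of the 28 genes, and 45 cells listed all of them. The set of broadly listed genes grew with the number of genes a cell listed, as it must in part, since each listed gene adds to that number. In the 41 cells at or above the median gene number 99 genes were listed in 90% of cells, and in the 41 below it 20 genes, all of which were among the 99. Among the 99 were 12 ribosomal protein genes. The added genes included Bgn, the matrix proteoglycan biglycan, in 41 of the 41 richer and 29 of the 41 poorer cells, with medians of 106.4 and 12.6 FPKM. The blood and stromal transcription factor Runx1 was listed in 40 and 30 cells with medians of 38.9 and 6.03 FPKM. Kdelr2, which returns proteins to the endoplasmic reticulum, was listed in 41 and 16 cells with medians of 37.1 and 0 FPKM. Ibsp differed less, with 40 and 41 cells and medians of 585 and 386 FPKM, and Cxcl12 had medians of 1050 and 663 FPKM.

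The start regions of the broadly listed genes were read from RefSeq build GRCm38.p6, where 23 of the 28 matched and had 30 annotated starts. The 250 bases before the start had a median G and C share of 58.2% (quartiles 49.1 and 61.7) and a median of 9 CpG, against 52.4% (45.2 and 61.2) and 6 CpG over 32851 starts of 27025 genes. The TATA box letters TATAAA, read on both strands, were in 7 of the 30 windows (23.3%) and in 12.4% of all. The letters CCAAT were in 11 windows (36.7%) against 33.9% of all, and GGGCGG, the GC box, in 11 (36.7%) against 32.7%. These matches are descriptions of the windows, and several windows belong to 1 gene. A TATAAA match was present in the windows of B2m, Ibsp, Kitl, Igfbp4 and H2-D1 and in 1 of several windows of Fth1 and Sepp1.

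Gene lists placed the same cells against pathways of the marrow niche. Over all 10118 named genes listed in at least 1 young cell, 3.12% were listed in 50% of cells or more. The factors that act on blood cells formed a graded series. Of 13 niche factors 3 were broadly listed (Cxcl12, Kitl and Vcam1), and 5 reached 50% of cells. Cxcl12 and Kitl are also among the markers against which the label of the cells was checked. Igf1, insulin-like growth factor 1, was listed in 59 cells with a median of 12.2 FPKM, Csf1, the macrophage growth factor, in 45 (3.04 FPKM), Angpt1, the ligand of the Tie2 receptor, in 39 (0.741 FPKM) and Il7, the lymphoid growth factor, in 29. Thpo, thrombopoietin, and Nov were listed in no cell. Receptors and ligands of other growth factors were listed in intermediate shares. Il1r1, an interleukin 1 receptor, was listed in 62 cells (34.6 FPKM), the fibroblast growth factor receptor Fgfr2 in 61 (26.5 FPKM), Pdgfrb in 61 (13.98 FPKM), the growth hormone receptor Ghr in 53 (7.85 FPKM), Gas6, the ligand of the TAM receptors, in 56 (5.83 FPKM) and Lifr in 52 (3.59 FPKM). Pdgfra, whose protein was used in the sort, was listed in 28 cells.

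**Figure D3:**
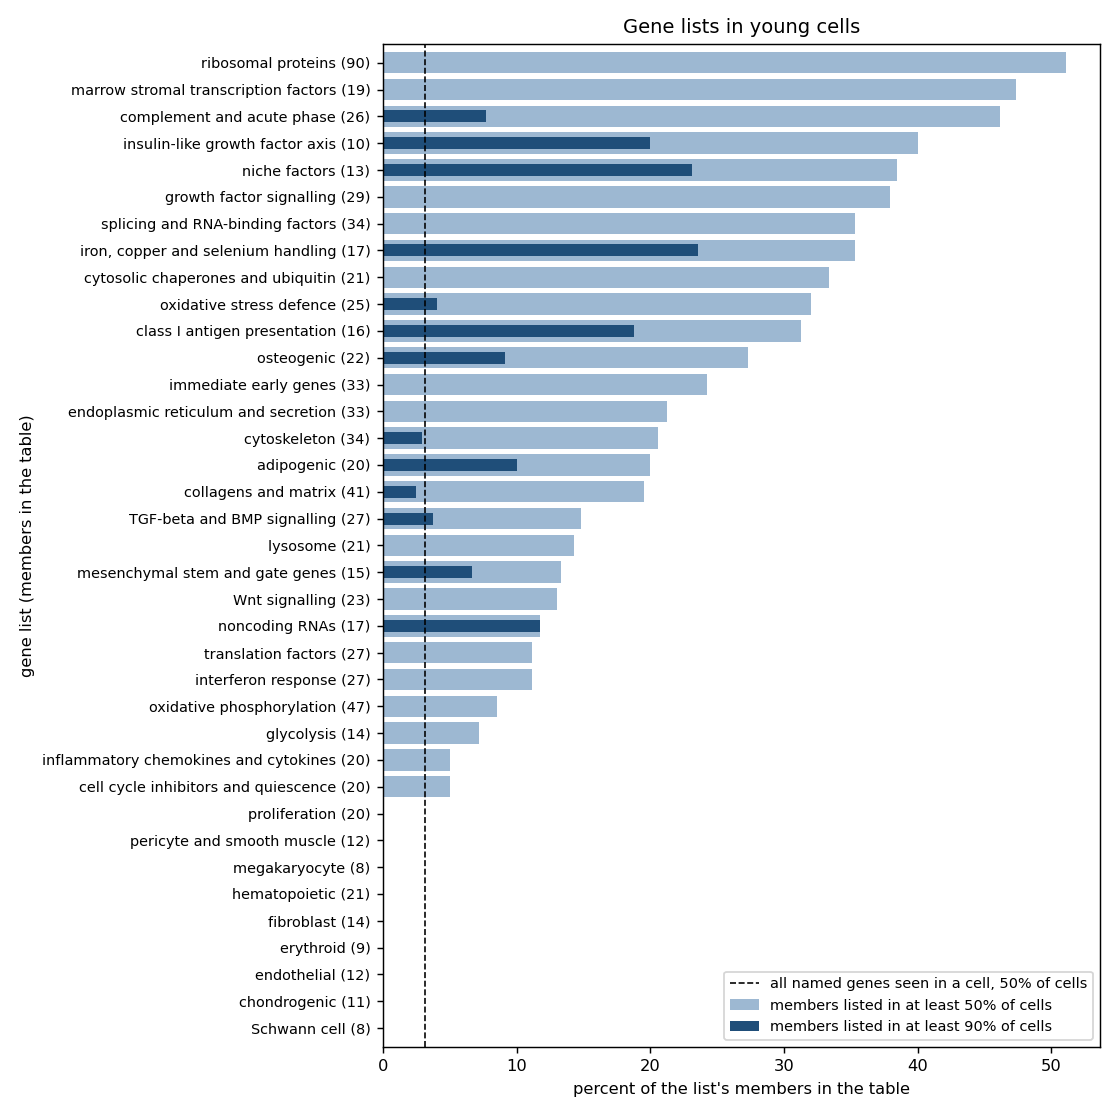
Bars give the percent of each gene list's members in the table (horizontal axis) that were listed at 1 FPKM in at least 50% (pale) or 90% (dark) of the 82 young cells, with list sizes in brackets. The dashed line marks the 3.12% of all named genes seen in a cell that reached 50% of cells, and 9 lists of other cell types or of dividing cells have no bar.

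Transcription factors of marrow stroma were listed at low level and in unequal numbers of cells. Of 19 such genes 0 were broadly listed, 9 reached 50% of cells and 0 were missing from all cells. Runx1 led with 70 cells and a median of 20.0 FPKM, followed by Ebf1 in 68 (13.7 FPKM), and Ebf3 was listed in 55 cells (7.45 FPKM). Tcf7l2, a Wnt pathway effector, was listed in 61 cells (14.8 FPKM), Maf in 59 (19.5 FPKM), Nfia in 57 (4.50 FPKM) and Foxc1, a forkhead factor of Cxcl12-rich stroma, in 45 (1.66 FPKM). Ebf2 was listed in 8 cells, Meis2 and Twist1 in 2 each.

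The complement and acute phase list, which also holds the protease inhibitor Serpine2, had 12 of 26 members at 50% of cells. Beside Serpine2, Serping1 and Hp, the copper carrier ceruloplasmin (Cp) was listed in 71 cells (38.95 FPKM) and clusterin (Clu) in 65 (28.8 FPKM). Lbp, which binds bacterial lipopolysaccharide, was listed in 53 cells (9.92 FPKM), and C1s in 42 (1.27 FPKM) and C1ra in 41, proteases that start the classical cascade. C3, the central component, was listed in 16 cells, and Saa3, Lcn2 and Cfd in none. Of 20 inflammatory chemokines and cytokines 1 reached 50% of cells, Cxcl14 in 54 (3.58 FPKM). This share of 5% is near the 3.12% over all named genes listed in at least 1 cell. Cxcl9 was listed in 15 cells and Ccl2 in 8, with highest values of 1510 and 1741 FPKM, so a few cells held much of these chemokines. Il6 was listed in no cell.

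Carriers of insulin-like growth factors led that axis: Igfbp5 and Igfbp4 were broadly listed, Igfbp7 was listed in 49 cells (7.61 FPKM) and Igfbp3 in 36, whereas the receptors Igf1r and Igf2r were listed in 22 cells each and Igfbp2 and Igfbp6 in none. Of 41 collagen and matrix genes 8 reached 50% of cells. Sparc, the collagen-binding protein osteonectin, was listed in 72 cells (70.2 FPKM), Bgn in 70 (58.7 FPKM), Tnc, tenascin C, in 60 (12.2 FPKM), Fbn1, fibrillin, in 54 (6.29 FPKM) and Fbln5 in 53 (7.40 FPKM), while Fn1 and Postn were listed in 1 cell each. Among modulators of bone morphogenetic proteins, Chrdl1, a secreted antagonist, was listed in 66 cells (18.01 FPKM), and Tgfbr3, a co-receptor, in 62 (16.5 FPKM), whereas Bmp4 was listed in 16. Among Wnt genes Sfrp4, a secreted antagonist, was listed in 52 cells (11.3 FPKM).

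Immediate early genes, which rise within minutes of a stimulus or of cell handling, were also present, and their part in the other values was not tested. Of 33 such genes 8 reached 50% of cells. Fos ran from 0 to 1157 FPKM with a median of 69.8 in 72 cells, Egr1 was listed in 65 (37.7 FPKM), Btg1 in 62 (40.9 FPKM) and Jun in 57 (13.2 FPKM). The heat shock protein gene Hspa8 was listed in 72 cells (70.0 FPKM), and the stress-induced Hspa1a and Hspa1b in 15 cells each.

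Spread among the cells was measured as the SD of log2(FPKM + 1) over the 82 cells. It was taken for genes listed in at least 25% of cells with less than 50% of their summed FPKM in 1 cell, which 938 genes passed. Among the genes all cells listed, Cxcl12 had the smallest SD (1.33), followed by Malat1 (1.57), B2m (1.65), Actb (1.98) and Rn45s (2.62). Serpine2 (1.78) and Lepr (1.98) also varied little, whereas Cst3 (2.45), Ibsp (2.51) and Fth1 (2.87) varied more among cells that nearly all listed them. Adipoq had an SD of 2.90, but the filter leaves it out of the ranking because 1 cell held 60.8% of its FPKM.

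**Figure D4:**
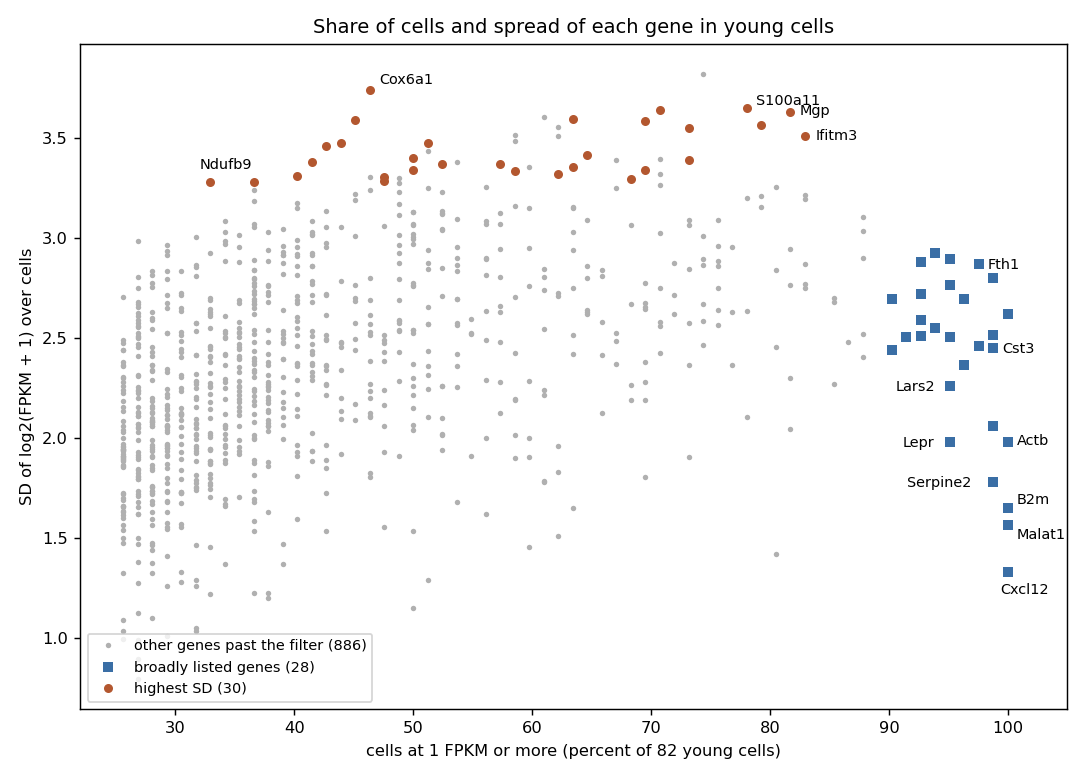
Each point is a gene, with the percent of the 82 young cells that listed it (horizontal axis) and the SD of its log2(FPKM + 1) over the cells (vertical axis). Squares are the 28 broadly listed genes. Larger circles are the 30 genes of highest SD once ribosomal protein, predicted and small RNA genes and names turned into dates are left out. Grey points are the other genes past the filter, ribosomal protein genes included. Cxcl12 has an SD of 1.33 at 100% of cells, and the 30 circles lie between 3.28 and 3.74, with the ribosomal protein gene Rps27 above them at 3.82.

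Of the 938 genes, 86 were ribosomal protein, predicted or small RNA genes or had names turned into dates. These were left out of the ranking, which leaves 852. With them kept, ribosomal protein genes would be 11 of the 30 highest SDs, led by Rps27 at 3.82 in 61 cells. The 30 most variable genes of the 852 had SDs from 3.74 (Cox6a1) to 3.28 (Uqcrq). Members of the oxidative phosphorylation list, which encode parts of the respiratory chain and ATP synthase, were 8 of the 30 (26.7%), against 32 of the 852 (3.76%): Cox6a1, Ndufa4, Atp5g3, Cox4i1, Atp5k, Cox6c, Ndufb9 and Uqcrq. Ndufa3, another subunit gene among the 30, is not in that list. With no kind left out, 6 of the 30 highest SDs belonged to the list. Cox6a1 ran from 0 to 1269 FPKM and was listed in 38 cells, where its median was 209 FPKM, and 36 cells were at exactly 0. Ndufb9 was listed in 27 cells with a median of 119 FPKM among them, and 48 cells were at 0. These genes were therefore high in some cells and stood at 0 in others. With the SD over listing cells only, added after seeing the data, none of the 8 list members stayed among the 30 highest. Atp5d, Uqcrh and Ndufa6 of the same list were among the 30 of that ranking. Of the whole list of 47 oxidative phosphorylation genes 4 reached 50% of cells and 0 were broadly listed.

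Mgp ran from 0 to 3248 FPKM with an SD of 3.63, and its quartiles of 4.73 and 515 FPKM were far apart. S100a11 (SD 3.65) was listed in 64 cells with a median of 299 FPKM there, Ifitm2 (3.64) in 58 with 201 FPKM and Ifitm3 (3.51) in 68 with 307 FPKM. Rarres2, which encodes the chemoattractant chemerin, was listed in 52 cells with a median of 141 FPKM there, Cd63, a tetraspanin of lysosomes and vesicles, in 60 (141 FPKM), and Ghr in 53 (32.9 FPKM), with a highest value of 6397 FPKM. Rcn3 and Arf4 of the secretory pathway were listed in 37 and 51 cells, Tmem176a in 56, Anxa1 in 39 and Fxyd1 in 33.

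Nupr1 had an SD of 3.57 and was listed in 65 cells with a median of 257 FPKM there. Sod1, the cytosolic superoxide dismutase, was listed in 57 cells (152 FPKM), the peroxidases Gpx8 and Prdx5 in 52 and 39, and the metallothionein Mt1 in 35 cells (98.5 FPKM). The splicing genes Srsf2 and Clk1 were listed in 60 and 57 cells, and Gng5 and Mrfap1 completed the 30.

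**Figure D5:**
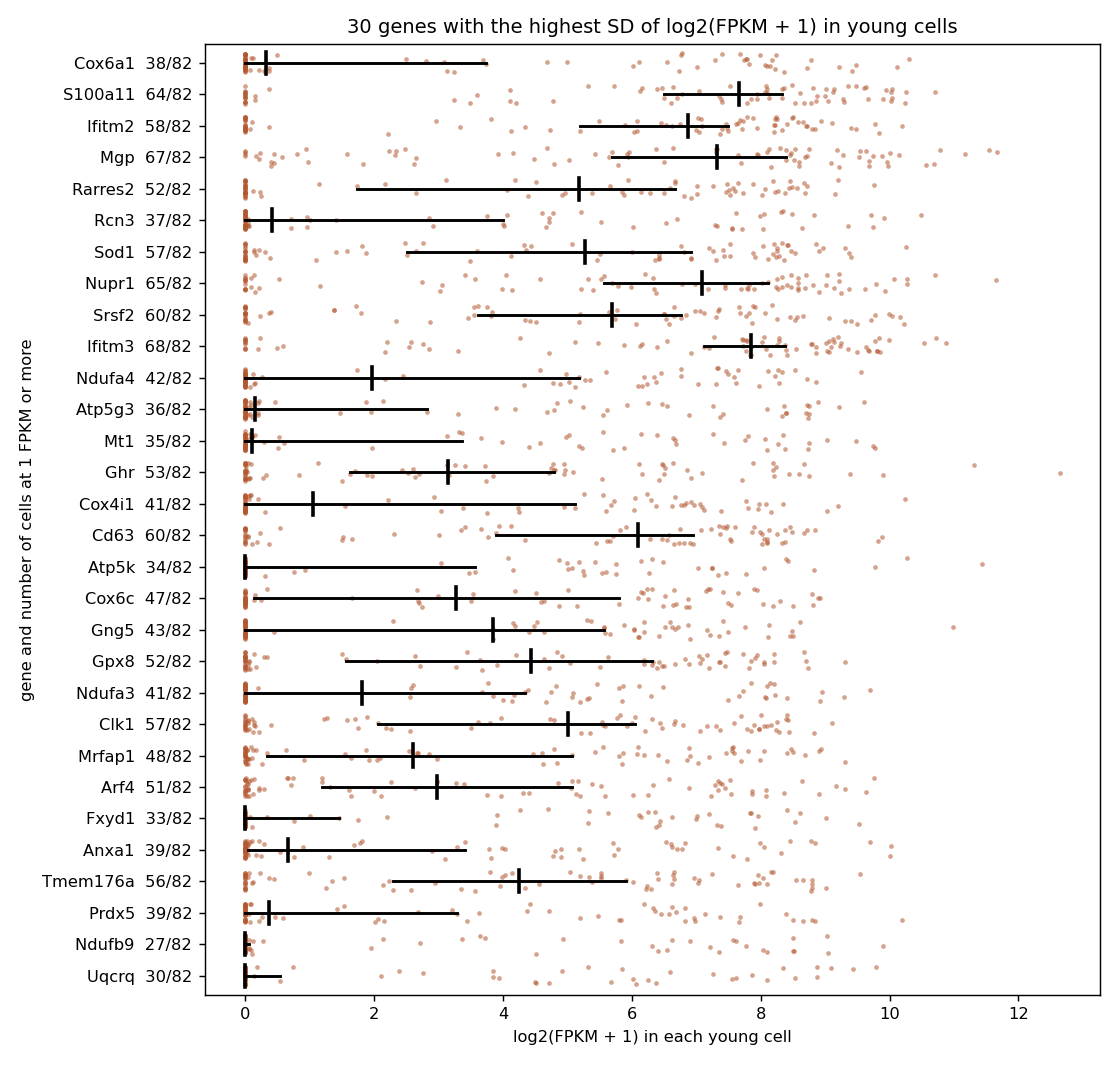
Each point is log2(FPKM + 1) of a gene in 1 young cell (horizontal axis), for the 30 genes with the highest SD from top to bottom, with the number of cells listing each beside its name. Black ticks are medians and black lines their exact 95% intervals. Most genes show a column of cells at 0 and a broad cloud of higher values, such as Cox6a1 with 36 cells at 0 and a highest value of 1269 FPKM.

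Spread tended to be larger for genes of higher mean level and of shorter transcript. Across the 852 genes past the filter and not left out, SD and mean log2(FPKM + 1) had a Spearman correlation of 0.79. The relation did not hold for the abundant Cxcl12, Malat1 and B2m, with means of 9.65, 9.29 and 9.09. Their SDs ranked only 913, 883 and 866 among the 938 genes past the filter. The longest annotated protein-coding transcript had a median of 812 bases for the 30 most variable genes (quartiles 644.5 and 1535), 1507 for the 30 highest medians and 3155 for 843 of the 852 genes (1860 and 5382). Across these 843 genes, which are not independent, SD and length had a Spearman correlation of -0.48. Per cell, the level of the 30 most variable genes followed the number of listed genes with correlations from -0.08 to 0.66 and a median of 0.42, against a median of 0.39 over the 852 genes past the filter and not left out, so the 30 genes differed little from the others in this respect. The highest was that of Ifitm3 (0.66). Mgp, at -0.08, was the lowest of the 30, so its level did not follow how many genes a cell listed. The part of level, transcript length and gene number in the spread was not tested.

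Few pairs of the most variable genes were strongly correlated across cells, which share a capture and differ in gene number. Of 435 pairs of the 30 most variable genes, 2 had a Spearman correlation of 0.5 or more in size over 82 cells: Ifitm3 with Cox4i1 (0.55) and Ifitm3 with Ifitm2 (0.53). Within the 41 cells at or above the median gene number these were 0.31 and 0.39, and 0 of the 435 pairs reached 0.5 in both. The median correlation fell from 0.21 over 82 cells to 0.05 over those 41. Ifitm2 and Ifitm3 are closely similar genes, so reads may be shared between them. Among 666 pairs of the most abundant and broadly listed genes, a set added after the first values were seen, 27 reached 0.5 over 82 cells and 1 in both, Ubb with Ftl1 (0.55 and 0.57). The highest over 82 cells was Gja1 with Fstl1 (0.69, and 0.48 within the 41), and that of Adipoq with Cst3 fell from 0.66 to 0.22.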

How the data were processed

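RNA of 82 single young cells was analysed from 1 table of FPKM per gene and cell deposited by the authors. Cufflinks 2.1.1 and build mm9 were used per the submitters' processing notes. The aligner, the annotation, the filters and the treatment of shared reads are not stated there. The FPKM deposited by the authors hold no read counts, so the depth is unknown and no count model was used. Of 96 wells, 83 were valid per the labels' protocols, 1 more than the cells analysed here, and the 78 old cells were not used. Wells with several cells were set aside by eye per the same protocol, and no doublet caller was run. No 2 columns were identical.

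Of 31199 rows, 7751 with no gene name were dropped, and rows sharing any of 468 names were summed, leaving 22866 names. A further 356 rows join several symbols, and 27 names had been turned into dates. Medians carry exact order-statistic 95% intervals, and shares exact Clopper-Pearson intervals, computed with Python 3.11.15 and scipy 1.17.1. Spread is the SD of log2(FPKM + 1), with a pseudocount of 1. The floor for a share of 0 is 3 cells of 82.

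The rule named the 30 highest medians, the 30 highest SDs, each gene at the shares nearest to 90%, the markers, and from each of 37 lists the 2 highest medians and the highest and lowest shares. Further list members were named after their values were seen, and some items are not reported here. The cells, markers and lists were chosen with earlier results of these data known. Transcript lengths came from GENCODE M21 and start regions from RefSeq, both matched by symbol. Steps were tested on simulated data. Alternatives are given in the closing section.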

Additional observations from a re-analysis of the deposited data

Results flagged for a closer look

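No result above uses the rows that lack a gene name, yet in the median young cell 47.2% of all FPKM lay on them (range 22.2 to 99.7). The share was 70.7 to 97.1% in the 13 cells whose summed FPKM on named genes exceeded 3 times the median, with a median of 88.6%, against a median of 44.7% in the other 69 cells. Of the 7751 rows 2 were at 1 FPKM or more in at least 90% of cells. Their identity was not analysed here. With 1 group of 82 cells, no cell was set against the rest as an outlier.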

How the results depend on the processing

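The number of genes listed in 90% of cells was 28. It was 18 and 13 when a gene had to reach 5 and 10 FPKM, 56 at 80% of cells and 99 in cells at or above the median gene number. The number of lists with such a gene, 13 of 37, became 21 at 80% of cells and 22 in those richer cells. At 0.1 FPKM, at 95% of cells, without gene-poor cells, with the highest row kept in place of the sum and without the 13 cells of large summed FPKM (an alternative added after seeing the data) it lay between 19 and 39 genes. Of the 30 highest medians 27 to 30 were shared with 6 other rankings, but 9 with the plain mean, which single cells set. Of the 30 highest SDs 20 to 24 were shared under a pseudocount of 0.1, the interquartile range, no filter, rescaling and the 2 sets without poor or large-sum cells. The number was 16 with a pseudocount of 10, 19 for SD in excess of genes of like mean, 12 in cells at or above the median gene number and 7 for the SD over listing cells only, the last added after seeing the data. Pairs above 0.5 in both sets of cells numbered 0, and 1 for the abundant genes. Listing at 10 FPKM took the median gene number per cell from 1114.5 to 651.5. The medians of 63 named genes moved by less than 1 SD of log2(FPKM + 1) under 3 alternatives, a wide margin. Of the 30 highest medians, 4 moved by over 1.5 times when cells were rescaled to the same sum: Hp from 171 to 69.1 FPKM, Nupr1 from 135 to 48.2, Spp1 from 77.1 to 41.7 and Mgp from 158 to 101. Without the large-sum cells 1 did, Mgp to 89.7, and without gene-poor cells 0 did. Of the 33 others, 19 moved by over 1.5 times without gene-poor cells, 14 without large-sum cells and 3 when rescaled. No paired analysis was possible because the result comes from no test and 1 group only was described. Unknown depth limits every share: a gene not listed may be expressed.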

Other observations

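Rn45s and Lars2 differed from the other broadly listed genes in their relation to the number of genes a cell listed. Over the 82 cells the Spearman correlation with gene number was -0.62 for Rn45s, the ribosomal RNA precursor, and -0.37 for Lars2, whereas it ran from -0.02 (Lpl) to 0.67 (Tmem176b) for the other 26. Among the 37 abundant and broadly listed genes that were paired, which leave out Rn45s, the 3 lowest correlations were with Lars2: -0.47 with Serpine2, -0.42 with B2m and -0.36 with Ifitm2. Within the 41 cells at or above the median gene number these were -0.27, -0.10 and 0.11.

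Foxc1, a forkhead factor of marrow stroma, and Spp1, osteopontin, had a Spearman correlation of 0.52 over 82 cells and 0.58 within the 41 cells of higher gene number. The pair was picked after its values were seen, from many pairs.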
